A study of Mus musculus with 12 samples.

Results

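DNA replication and S phase entry were examined through 39 genes in cultured fibrochondrocytes of the mouse mandible. The genes were chosen by function and found by gene name among the 31075 genes of the deposited table, and all 39 were among the 19118 genes left for testing by a filter on low counts. Bulk mRNA was sequenced in 4 groups of 3 libraries. The KO_Opti and KO_Norm cells lacked the proteoglycan NG2/CSPG4. Their deletion allele of Cspg4 bears a reporter and was derived from a knockout-first allele of the KOMP repository crossed to a Cre line and then backcrossed to C57BL/6J. The WT_Opti and WT_Norm cells came from C57BL/6J mice. All cells were primary cells of the mandibular condylar cartilage from pups 10 to 14 days old, taken at passage 4 according to the labels, while the methods describe an earlier passage. Opti stands for Opti-MEM without added serum and Norm for AMEM with heat-inactivated fetal bovine serum, so that serum and basal medium cannot be told apart. In the labels of the 6 knockout libraries, the medium in the title contradicts the one entered as treatment. Groups were named by title, and values for the reverse assignment follow further on. The study calls the 3 libraries of a group biological replicates without saying if each had its own animal or culture, and the p-values therefore cover only the variation among the sequenced libraries, part of which may be technical.

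Libraries held 51546504 to 71448484 counts. Cspg4, the deleted gene, had 10.5 to 16.6 CPM (counts scaled to a common library size) in the 6 knockout libraries and 114 to 216 CPM in the 6 wild type libraries. Of the cell type markers, the 6 fibroblast genes were detected in every library, with a sum of 34840 to 86120 CPM in knockout and 95930 to 151100 CPM in wild type libraries, without overlap. The 5 chondrocyte genes summed to 199 to 273 CPM in knockout and 128 to 352 CPM in wild type libraries, and the 6 myeloid genes to 179 to 550 CPM in knockout and 442 to 1006 CPM in wild type libraries. The 4 Y-linked genes (Ddx3y, Eif2s3y, Kdm5d and Uty) summed to 73.5 to 129 CPM in knockout libraries and 37.5 to 66.1 CPM in wild type libraries, with no overlap. The knockout groups did not overlap either, with 73.5 to 82.1 CPM in KO_Opti and 113 to 129 CPM in KO_Norm libraries. Single WT_Norm libraries held markers of further cell types. The 5 epithelial genes summed to 1.18 to 15.8 CPM in knockout and 1.73 to 143 CPM in wild type libraries, with Krt14 at 93.5 and Krt5 at 41.4 CPM in WT_Norm replicate 2 and Krt8 at 56.8 CPM in WT_Norm replicate 1. The 5 endothelial genes summed to 0.563 to 0.987 CPM in knockout and 0.849 to 36.5 CPM in wild type libraries, highest in WT_Norm replicate 2, and the 5 genes of glia and neurons to 20.8 to 25.2 CPM in knockout and 14.3 to 132 CPM in wild type libraries, highest in WT_Norm replicate 3. The 5 osteoblast genes summed to 160 to 253 CPM in knockout and 361 to 2008 CPM in wild type libraries, while the 5 mural and 4 muscle genes did not exceed 14.7 and 8.96 CPM in any library. Some sums also differed between groups of 1 genotype without overlap. Fibroblast genes had 34840 to 50270 CPM in KO_Opti and 65320 to 86120 CPM in KO_Norm libraries. In wild type cells they had 95930 to 108900 CPM in WT_Opti and 135800 to 151100 CPM in WT_Norm libraries. The myeloid, mural, muscle, and glia and neuron sums of the wild type groups and the muscle sums of the knockout groups did not overlap either. Osteoblast genes had 361 to 481 CPM in WT_Opti and 1455 to 2008 CPM in WT_Norm libraries. Chondrocyte genes had 128 to 145.5 CPM in WT_Opti and 323 to 352 CPM in WT_Norm libraries. Myeloid genes had 179 to 210 CPM in KO_Opti and 504 to 550 CPM in KO_Norm libraries. The part of these cell types in the results was not tested, and counts without each WT_Norm library are given with the first comparison. The part of the sex of the pups in genotype differences was not tested apart from genotype. In differences between the knockout groups it was not tested apart from medium. In bulk RNA fewer cells of a type and less RNA per cell cannot be told apart.

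Replication begins when the origin recognition complex, Cdc6 and Cdt1 load the ring of Mcm2 to Mcm7 onto origins in G1. Cdc45 and the GINS complex then join the ring, Mcm10 helps it to open, and polymerases alpha, delta and epsilon copy the strands. The sliding clamp PCNA, placed by the RFC loader, holds the polymerases on DNA. Fen1 and Lig1 finish the lagging strand, thymidylate and ribonucleotide enzymes supply the building blocks, and Uhrf1 and the CAF-1 histone chaperone restore chromatin behind the fork. Many of these genes are known targets of E2F transcription factors, which cyclin E and its kinase help to release from the retinoblastoma protein at the G1/S boundary. Serum withdrawal is a textbook way to hold cultured cells before S phase.

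Since E2F acts at promoters, the windows from 250 bases before to 50 bases after the gene start were read from RefSeq (GRCm38.p6), which held 32 of the 39 genes. The 6 stretches below were picked because they carry E2F letters, so they do not stand for all 39 genes. Of them, 4 belong to genes that were lower in wild type cells in Opti (Cdc6, Orc1, Mcm5 and Mcm6). The other 2 belong to the genes that were higher (Mcm7 and Cdt1). Capitals mark the E2F letters TTTCCCGC, TTTGGCGC, TTTCGCGC, TTTGCCGC and the core GCGGGAA on either strand.
Cdc6: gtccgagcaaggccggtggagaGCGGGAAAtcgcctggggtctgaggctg
Orc1: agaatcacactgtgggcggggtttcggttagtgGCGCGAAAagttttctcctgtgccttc
Mcm5: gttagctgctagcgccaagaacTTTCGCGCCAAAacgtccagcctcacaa
Mcm6: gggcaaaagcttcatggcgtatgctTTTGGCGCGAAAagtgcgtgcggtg
Mcm7: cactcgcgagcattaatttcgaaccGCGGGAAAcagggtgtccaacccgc
Cdt1: atccGCGGGAActaccttTTTGGCGCcatg
Distances are from the RefSeq start, which can differ from the gene start in the deposited table. The Cdc6 stretch lies at chr11:98907991-98908040, plus strand, 160 to 111 bases before the start in RefSeq and inside the gene as the deposited table gives it. The Orc1 stretch lies at chr4:108579394-108579453, plus strand, 60 to 1 bases before the start in RefSeq, and its last 31 bases are inside the gene of the deposited table. The Mcm5 stretch (chr8:75109334-75109383, plus strand) and the Mcm6 stretch (chr1:128359791-128359840, minus strand) each hold 2 overlapping E2F words that read on opposite strands. The Mcm7 stretch lies at chr5:138172024-138172073, minus strand, 190 to 141 bases before the start as the second of 2 RefSeq starts gives it, and inside the gene of the deposited table. The Cdt1 stretch lies just inside the transcript at chr8:122568029-122568058, plus strand.

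At least 1 of the 4 E2F words of 8 letters was found on either strand for 14 of the 32 genes (43.8%), against 2.60% of all 27025 genes with a window. The core GCGGGAA, which overlaps TTTCCCGC where that word is present, was found for 14 of the 32 genes and for 5.29% of all genes. Together the E2F words and the core were found for 19 of 32 genes (59.4%) and for 6.54% of all genes. The CHR letters TTTGAA were found for 5 of the 32 genes and 20.2% of all genes, and CCAAT for 19 of the 32 genes and 41.1% of all genes. Pcna, Mcm10, Tk1, Tyms, Rrm2 and Ccne1 had windows without these E2F letters, which says only that the letters are not in those windows. The E2F letters were thus present both in genes that were lower and in both genes that were higher in WT_Opti cells.

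The geometric mean over the 39 genes was 8.91, 9.76 and 9.58 CPM in the KO_Opti libraries and 10.0, 9.78 and 9.30 CPM in the KO_Norm libraries. The wild type libraries gave 7.08, 7.48 and 7.26 CPM in Opti and 20.3, 14.2 and 15.4 CPM in Norm. All 6 knockout libraries therefore lay above the 3 WT_Opti libraries and below the 3 WT_Norm libraries, whichever medium label is used for them. WT_Norm replicate 1 was the highest library of its group for 36 of the 39 genes. For 14 genes every knockout library lay between the wild type groups in this way, a pattern met by 1.95% of all tested genes. These were Cdc6, Mcm3, Mcm5, Mcm6, Mcm10, Cdc45, Rfc5, Pole, Fen1, Lig1, Tk1, Uhrf1, Chaf1a and Ccne2. No member showed the opposite order, which was met by 2.21% of all tested genes, so this absence was near the background. In 10 members, among them Cdt1, Mcm2, Mcm7, Prim1 and E2f1, the WT_Opti libraries did not all lie below the WT_Norm libraries. For the other 29 the WT_Opti libraries lay wholly below the WT_Norm libraries, against 24.5% of all tested genes.

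**Figure D1:**
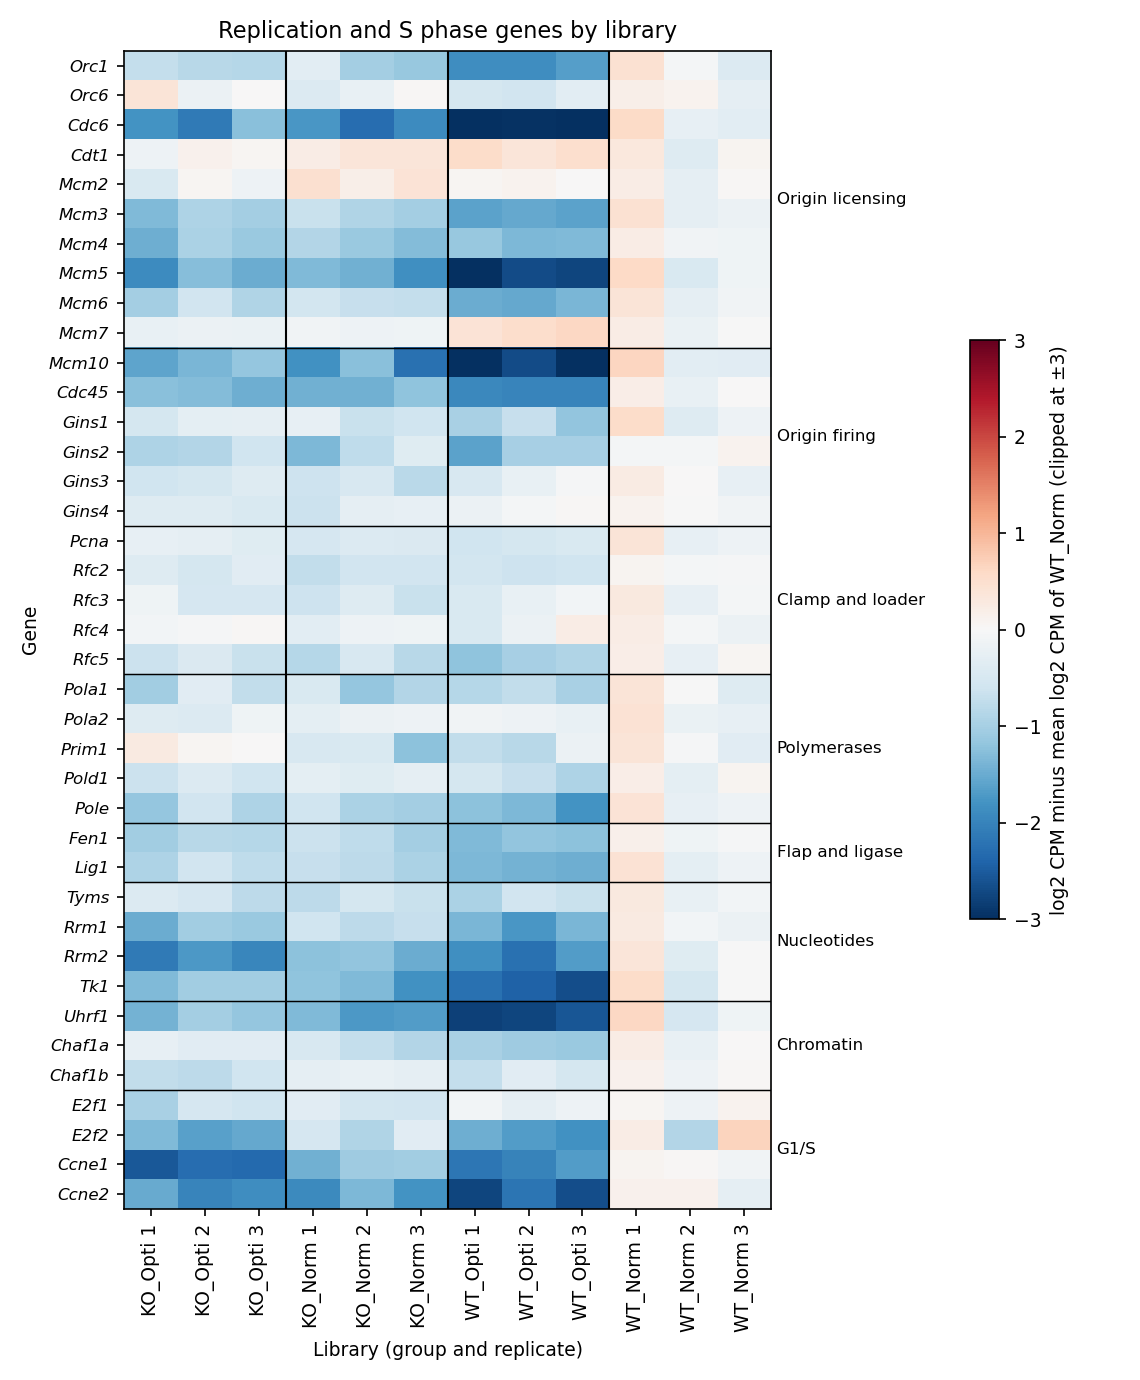
Level of the 39 genes (rows, grouped by role) in the 12 libraries (columns), as log2 CPM minus the mean log2 CPM of the 3 WT_Norm libraries of that gene, with colors clipped at 3 on either side. Most rows are darkest blue in the 3 WT_Opti libraries and lighter blue in the 6 knockout libraries, while Cdt1 and Mcm7 are red in WT_Opti.

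**Figure D2:**
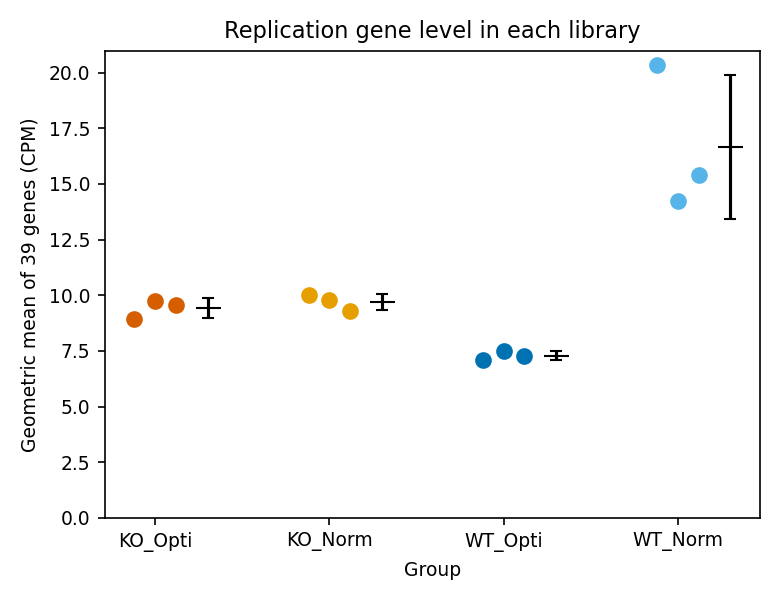
Geometric mean CPM of the 39 genes for each library (points, 3 per group), with the mean and SD of each group beside them (black). The knockout libraries lie between 8.91 and 10.0 CPM, above the WT_Opti libraries and below the WT_Norm libraries.

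The medium comparison within wild type cells asks what Opti-MEM without serum does to these genes, and both labels of these 6 libraries name the same medium. Differences are given as log2 fold changes with their standard error (±), and gene positions are those of the deposited table (GRCm38). Of the 39 genes, 29 were lower and 2 were higher in WT_Opti than in WT_Norm libraries (edgeR's quasi-likelihood test, Benjamini-Hochberg adjusted p below 0.05). Over all tested genes 19.6% were lower and 20.3% were higher. The median log2 fold change was -1.07 for the 39 genes and -0.01 for all tested genes, and 21 of the 39 genes were lower by at least 2-fold. In KO_Norm against WT_Norm, 29 genes were lower and none was higher, against 17.2% and 18.9% of all tested genes, with a median of -0.71. The count of 0 higher genes became 1 at an unadjusted p below 0.05, 0 with DESeq2 and 2 with limma on FPKM values. In KO_Opti against WT_Opti, 13 genes were higher and 5 were lower, against 13.3% and 14.9% of all tested genes, with a median of 0.29. The share of lower genes in this last comparison, 12.8%, was thus near that of all genes. Without WT_Norm replicate 2 or 3 the wild type comparison gave 28 and 30 lower genes. Without WT_Norm replicate 1 the counts were 27 lower and 2 higher for WT_Opti against WT_Norm, 23 lower and 2 higher for KO_Norm against WT_Norm, and 18 higher and 3 lower for KO_Opti against WT_Opti. A covariate of Y-linked expression, the mean log2 CPM of the 4 Y-linked genes, was also added. It left 29 lower genes for the wild type medium comparison and 1 lower gene for KO_Norm against WT_Norm. KO_Opti against WT_Opti then gave 6 higher and 1 lower. Because the covariate separates the genotypes, its part and that of the genotype cannot be told apart. The covariate also separates KO_Opti from KO_Norm libraries. Its part in the comparison of these groups and in the interaction cannot be told apart from that of the medium.

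**Figure D3:**
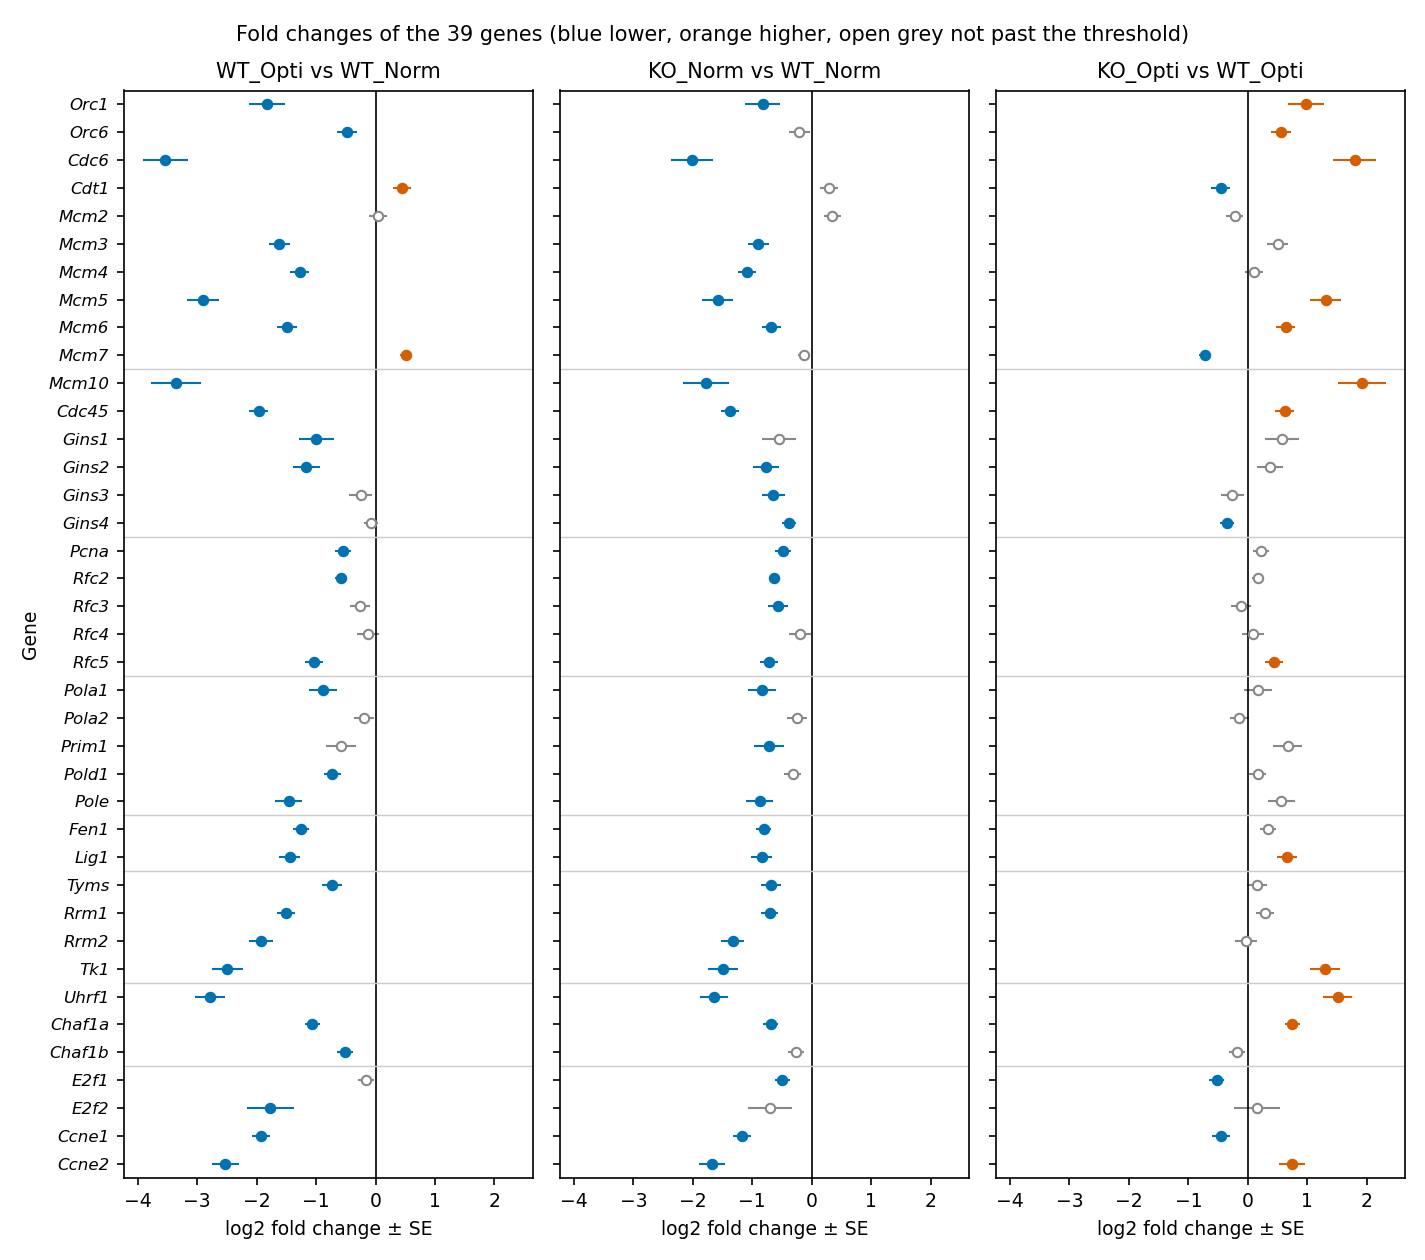
Log2 fold change (points) with its standard error (bars) for the 39 genes in 3 comparisons of 3 against 3 libraries, with filled points past the threshold. Blue points, lower, fill the panels WT_Opti vs WT_Norm and KO_Norm vs WT_Norm with 29 genes each, while 13 orange points, higher, and 5 blue points stand in KO_Opti vs WT_Opti.

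Among the 10 origin licensing genes, 7 were lower and 2 higher in WT_Opti than in WT_Norm. Cdc6, the loader that recruits the Mcm ring (chr11:98907801-98923940), had 2.09, 1.66 and 3.0 CPM in the KO_Opti libraries and 2.17, 1.48 and 1.96 CPM in the KO_Norm libraries. In wild type cells it had 0.628, 0.932 and 0.377 CPM in the WT_Opti libraries and 10.7, 6.04 and 5.80 CPM in the WT_Norm libraries. The 3 WT_Opti libraries were lowest, the 3 WT_Norm libraries highest, and no groups of different genotype overlapped. The log2 fold change of Cdc6 with its standard error was -3.54 ± 0.38 (adjusted p = 1.09e-05) for WT_Opti against WT_Norm, -2.01 ± 0.35 (adjusted p = 0.000792) for KO_Norm against WT_Norm and 1.80 ± 0.36 (adjusted p = 0.00261) for KO_Opti against WT_Opti. Mcm5, a ring subunit (chr8:75109569-75128439), had 8.24, 12.6 and 10.8 CPM in the KO_Opti libraries and 12.1, 11.2 and 8.49 CPM in the KO_Norm libraries, and 3.52, 4.72 and 4.51 CPM in the WT_Opti libraries and 45.9, 22.1 and 27.6 CPM in the WT_Norm libraries. The knockout groups overlapped each other but neither wild type group, and WT_Norm replicate 1 stood well above its 2 replicates. For Mcm5 the same 3 values were -2.90 ± 0.27 (adjusted p = 3.16e-06), -1.58 ± 0.26 (adjusted p = 0.00041) and 1.31 ± 0.26 (adjusted p = 0.00218). Orc1, a subunit of the origin recognition complex (chr4:108579423-108595580), was weakly expressed, with 1.53, 1.42 and 1.40 CPM in the KO_Opti libraries and 2.03, 1.25 and 1.14 CPM in the KO_Norm libraries, and 0.699, 0.699 and 0.802 CPM in the WT_Opti libraries and 3.49, 2.43 and 1.90 CPM in the WT_Norm libraries. It was lower in WT_Opti than in WT_Norm with a log2 fold change of -1.83 ± 0.31 (adjusted p = 0.000396) and higher in KO_Opti than in WT_Opti, at 0.98 ± 0.30 (adjusted p = 0.0271). KO_Norm against WT_Norm gave -0.82 ± 0.29 (adjusted p = 0.0452) for Orc1, and this call was lost without KO_Opti replicate 1, 2 or 3, KO_Norm replicate 2 or 3, WT_Opti replicate 1, 2 or 3 or WT_Norm replicate 1 or 2 (adjusted p = 0.0537 to 0.181). The KO_Opti call of Orc1 was lost without KO_Opti replicate 1, 2 or 3 or WT_Opti replicate 1, 2 or 3 (adjusted p = 0.0505 to 0.083).

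Mcm3, Mcm4 and Mcm6, further ring subunits, were lower in WT_Opti than in WT_Norm with log2 fold changes of -1.62 ± 0.18, -1.28 ± 0.15 and -1.49 ± 0.16, and in KO_Norm than in WT_Norm at -0.90 ± 0.18, -1.09 ± 0.15 and -0.68 ± 0.16. Only Mcm6 of these 3 was also higher in KO_Opti than in WT_Opti, at 0.64 ± 0.16 (adjusted p = 0.0101); Mcm3 gave 0.50 ± 0.18 (adjusted p = 0.0501) and Mcm4 0.11 ± 0.15 (adjusted p = 0.644). Orc6, another origin recognition subunit, was lower in WT_Opti at -0.48 ± 0.17 (adjusted p = 0.0416) and higher in KO_Opti than in WT_Opti, at 0.56 ± 0.17 (adjusted p = 0.0285). The ring was not uniform, since Mcm2 and Mcm7 did not follow Mcm3 to Mcm6. Mcm7 (chr5:138164583-138172422) had 42.2, 43.6 and 43.1 CPM in the KO_Opti libraries and 46.1, 44.3 and 44.9 CPM in the KO_Norm libraries, and 65.6, 71.4 and 75.7 CPM in the WT_Opti libraries and 57.0, 43.1 and 48.5 CPM in the WT_Norm libraries. Every WT_Opti library exceeded every other library, and the knockout and WT_Norm libraries overlapped. The log2 fold change of Mcm7 was 0.52 ± 0.10 (adjusted p = 0.00124) for WT_Opti against WT_Norm and -0.72 ± 0.10 (adjusted p = 0.000187) for KO_Opti against WT_Opti, while KO_Norm against WT_Norm gave -0.14 ± 0.10 (adjusted p = 0.32). Mcm7 shares exon bases with Cops6 and Ap4m1 on the opposite strand, and whether the counting used strand is not given in the sources used here. Such sharing is not particular to Mcm7. It holds for 14 of the 39 genes, among them Cdc45, Tk1, Ccne2, Fen1, Lig1, Chaf1a, Gins2, Rfc5, Pole, Orc1 and Orc6. Mcm2, with 36.3, 37.7 and 35.2 CPM in the WT_Opti libraries and 41.1, 28.9 and 36.0 CPM in the WT_Norm libraries, gave 0.04 ± 0.15 (adjusted p = 0.855) between them.

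Cdt1, which loads the Mcm ring together with Cdc6 (chr8:122568015-122573128), also went against the majority. It had 11.5, 13.8 and 13.1 CPM in the KO_Opti libraries and 14.9, 16.3 and 16.2 CPM in the KO_Norm libraries, and 18.5, 16.2 and 18.0 CPM in the WT_Opti libraries and 15.7, 9.64 and 13.4 CPM in the WT_Norm libraries. WT_Opti libraries were all above the WT_Norm libraries, and KO_Opti libraries were all below the WT_Opti libraries. Cdt1 gave 0.44 ± 0.16 (adjusted p = 0.0389) for WT_Opti against WT_Norm, 0.29 ± 0.16 (adjusted p = 0.172) for KO_Norm against WT_Norm and -0.46 ± 0.16 (adjusted p = 0.0444) for KO_Opti against WT_Opti. Both calls of Cdt1 were close to the threshold: the first was lost without KO_Opti replicate 3, KO_Norm replicate 3, WT_Opti replicate 1, 2 or 3 or WT_Norm replicate 2 or 3 (adjusted p = 0.0523 to 0.16) and with DESeq2 size factors, no filter or a replicate block, and the last without KO_Opti replicate 1, 2 or 3, KO_Norm replicate 2 or 3, WT_Opti replicate 1, 2 or 3 or WT_Norm replicate 3 (adjusted p = 0.0541 to 0.144). In KO_Norm against WT_Norm, Cdt1 passed the threshold without WT_Norm replicate 1 (adjusted p = 0.0462).

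Of the 6 origin firing genes, 4 were lower in WT_Opti than in WT_Norm and 5 lower in KO_Norm than in WT_Norm. Mcm10, which helps the helicase to open (chr2:4989714-5012791), had 2.12, 2.43 and 2.83 CPM in the KO_Opti libraries and 1.81, 2.67 and 1.34 CPM in the KO_Norm libraries, and 0.628, 0.979 and 0.330 CPM in the WT_Opti libraries and 9.91, 5.10 and 5.0 CPM in the WT_Norm libraries. Its lowest library held 21 counts. The 3 groups of knockout and WT_Opti libraries all lay below WT_Norm, and both knockout groups lay above WT_Opti. Mcm10 gave -3.37 ± 0.42 (adjusted p = 3.77e-05) for WT_Opti against WT_Norm, -1.78 ± 0.39 (adjusted p = 0.0035) for KO_Norm against WT_Norm and 1.92 ± 0.40 (adjusted p = 0.00331) for KO_Opti against WT_Opti. Cdc45, a part of the active helicase (chr16:18780447-18811972), had 4.43, 4.33 and 3.88 CPM in the KO_Opti libraries and 3.92, 3.91 and 4.62 CPM in the KO_Norm libraries, and 2.81, 2.70 and 2.70 CPM in the WT_Opti libraries and 12.3, 9.19 and 10.7 CPM in the WT_Norm libraries. The spread within each Cdc45 group was small beside the distance between wild type groups. Its 3 fold changes in the same order were -1.97 ± 0.16 (adjusted p = 9.57e-07), -1.37 ± 0.16 (adjusted p = 2.76e-05) and 0.62 ± 0.16 (adjusted p = 0.00974). Gins2, a GINS subunit, had 11.3, 11.7 and 14.3 CPM in the KO_Opti libraries and 8.49, 12.6 and 16.7 CPM in the KO_Norm libraries, and 7.11, 10.8 and 10.8 CPM in the WT_Opti libraries and 20.8, 20.7 and 23.0 CPM in the WT_Norm libraries. Every Gins2 library outside WT_Norm lay below the 3 WT_Norm libraries, and knockout and WT_Opti libraries overlapped. Gins2 gave -1.17 ± 0.22 (adjusted p = 0.00114), -0.77 ± 0.22 (adjusted p = 0.017) and 0.38 ± 0.22 (adjusted p = 0.237), and its second call was lost without KO_Norm replicate 1 (adjusted p = 0.0509). Gins3 and Gins4 gave -0.25 ± 0.19 and -0.07 ± 0.12 in WT_Opti against WT_Norm, neither past the threshold, and Gins4 was lower in KO_Opti than in WT_Opti at -0.34 ± 0.12 (adjusted p = 0.0485), a call lost without KO_Opti replicate 1, 2 or 3, KO_Norm replicate 2 or 3, WT_Opti replicate 1, 2 or 3 or WT_Norm replicate 1, 2 or 3 (adjusted p = 0.0553 to 0.165).

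Pcna encodes the sliding clamp, whose protein the study used as a proliferation measure (chr2:132249162-132253314). Pcna was the most abundant of the 39 genes per transcript length, with an average of 25.8 FPKM in WT_Norm libraries in the authors' values. It had 61.7, 60.7 and 56.8 CPM in the KO_Opti libraries and 51.8, 55 and 54.3 CPM in the KO_Norm libraries, and 48.4, 51.4 and 53.8 CPM in the WT_Opti libraries and 96.7, 62.2 and 66.2 CPM in the WT_Norm libraries. WT_Norm replicate 1 was far above the other Pcna values, the KO_Opti libraries lay under WT_Norm replicate 2, and KO_Norm and WT_Opti libraries overlapped. Pcna was lower in WT_Opti than in WT_Norm at -0.55 ± 0.14 (adjusted p = 0.00624) and in KO_Norm than in WT_Norm at -0.48 ± 0.14 (adjusted p = 0.0154), while KO_Opti against WT_Opti gave 0.22 ± 0.14 (adjusted p = 0.254). On FPKM values with limma neither of the first 2 Pcna calls was kept (adjusted p = 0.171 and 0.217). Without WT_Norm replicate 1, Pcna in KO_Opti against WT_Opti gave 0.26 (adjusted p = 0.0311). Averaged over both media, an exact two-sided permutation test of 6 knockout against 6 wild type libraries on log2 CPM of Pcna gave p = 0.565, with a difference of -0.12. The permutations did not keep the media apart, although Pcna differed between them in wild type cells. The test therefore cannot decide on genotype within either medium. Of the clamp loader genes, Rfc5 was lower in WT_Opti than in WT_Norm at -1.04 ± 0.15 (adjusted p = 0.000147) and Rfc2 at -0.59 ± 0.09 (adjusted p = 0.000227), while Rfc3 and Rfc4 gave -0.27 ± 0.17 and -0.12 ± 0.19, not past the threshold. Rfc2 and Rfc5 were lower in KO_Norm than in WT_Norm as well, at -0.63 ± 0.09 and -0.72 ± 0.15.

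Among the 5 polymerase genes, Pola1, Pold1 and Pole were lower in WT_Opti than in WT_Norm. Pola1, the catalytic subunit of polymerase alpha, had 5.13, 8.30 and 6.30 CPM in the KO_Opti libraries and 7.73, 4.72 and 5.80 CPM in the KO_Norm libraries, and 5.84, 6.31 and 5.42 CPM in the WT_Opti libraries and 13.9, 10.4 and 8.13 CPM in the WT_Norm libraries. All other Pola1 libraries but 1 lay below the lowest WT_Norm library. Pola1 gave -0.89 ± 0.24 (adjusted p = 0.0099) for WT_Opti against WT_Norm, -0.83 ± 0.24 (adjusted p = 0.0159) for KO_Norm against WT_Norm and 0.17 ± 0.24 (adjusted p = 0.658) for KO_Opti against WT_Opti. Without WT_Norm replicate 1, KO_Norm replicate 2 or KO_Norm replicate 3 the second of these was no longer past the threshold (adjusted p = 0.0644, 0.0678 and 0.0541). Pole, the catalytic subunit of polymerase epsilon, was lower at -1.46 ± 0.23 (adjusted p = 0.000224) in WT_Opti and -0.88 ± 0.22 (adjusted p = 0.00878) in KO_Norm, each against WT_Norm. Pola2 gave -0.20 ± 0.17 and -0.25 ± 0.17 in the same comparisons, neither past the threshold. Fen1, the flap nuclease, was lower at -1.25 ± 0.13 (adjusted p = 8.21e-06) and -0.81 ± 0.13 (adjusted p = 0.0004), and Lig1, the ligase of the lagging strand, at -1.44 ± 0.18 (adjusted p = 3.21e-05) and -0.84 ± 0.17 (adjusted p = 0.00241). Lig1 was also higher in KO_Opti than in WT_Opti, at 0.66 ± 0.17 (adjusted p = 0.0128).

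All 4 nucleotide supply genes were lower in WT_Opti than in WT_Norm and in KO_Norm than in WT_Norm. Tk1, thymidine kinase (chr11:117815526-117826092), had 6.45, 7.76 and 7.78 CPM in the KO_Opti libraries and 6.95, 6.37 and 4.58 CPM in the KO_Norm libraries, and 3.40, 3.0 and 2.55 CPM in the WT_Opti libraries and 23.4, 11.1 and 15.9 CPM in the WT_Norm libraries. Both knockout groups lay between the wild type groups without overlap. Tk1 gave -2.49 ± 0.26 (adjusted p = 7.51e-06) for WT_Opti against WT_Norm, -1.49 ± 0.25 (adjusted p = 0.000505) for KO_Norm against WT_Norm and 1.30 ± 0.25 (adjusted p = 0.00189) for KO_Opti against WT_Opti. Rrm2, the regulatory subunit of ribonucleotide reductase, had 9.40, 12.4 and 10.7 CPM in the KO_Opti libraries and 17.4, 18.1 and 14.7 CPM in the KO_Norm libraries, and 11.6, 8.73 and 12.9 CPM in the WT_Opti libraries and 53.3, 32.2 and 40.7 CPM in the WT_Norm libraries. KO_Opti and WT_Opti libraries of Rrm2 overlapped, KO_Norm lay above both, and WT_Norm was highest. The fold changes of Rrm2 in the same order were -1.93 ± 0.20 (adjusted p = 6.65e-06), -1.33 ± 0.19 (adjusted p = 0.000183) and -0.03 ± 0.19 (adjusted p = 0.933). Tyms, thymidylate synthase, had 9.58, 9.05 and 7.38 CPM in the KO_Opti libraries and 7.42, 8.81 and 8.02 CPM in the KO_Norm libraries, and 6.67, 8.64 and 7.99 CPM in the WT_Opti libraries and 15.7, 10.9 and 12.1 CPM in the WT_Norm libraries, so that every library outside WT_Norm lay below the WT_Norm libraries. Tyms gave -0.74 ± 0.17 (adjusted p = 0.00366), -0.68 ± 0.17 (adjusted p = 0.00729) and 0.16 ± 0.17 (adjusted p = 0.53). Rrm1, the catalytic subunit, gave -1.50 ± 0.15, -0.71 ± 0.15 and 0.29 ± 0.15, of which the last did not pass the threshold.

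Uhrf1, which brings maintenance methylation to newly copied DNA (chr17:56303321-56323486), had 9.27, 12.2 and 11.2 CPM in the KO_Opti libraries and 9.91, 7.45 and 7.74 CPM in the KO_Norm libraries, and 3.54, 3.67 and 4.20 CPM in the WT_Opti libraries and 38.0, 17.6 and 22.7 CPM in the WT_Norm libraries. The WT_Opti libraries of Uhrf1 were closely grouped at the bottom and the WT_Norm libraries widely spread at the top. Uhrf1 gave -2.78 ± 0.25 (adjusted p = 2.65e-06) for WT_Opti against WT_Norm, -1.64 ± 0.24 (adjusted p = 0.000205) for KO_Norm against WT_Norm and 1.52 ± 0.24 (adjusted p = 0.000544) for KO_Opti against WT_Opti. The CAF-1 genes differed: Chaf1a gave -1.07 ± 0.13 (adjusted p = 3.05e-05), -0.69 ± 0.13 (adjusted p = 0.00115) and 0.75 ± 0.13 (adjusted p = 0.000862), while Chaf1b gave -0.52 ± 0.14 (adjusted p = 0.00839), -0.26 ± 0.14 (adjusted p = 0.154) and -0.18 ± 0.14 (adjusted p = 0.368).

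**Figure D4:**
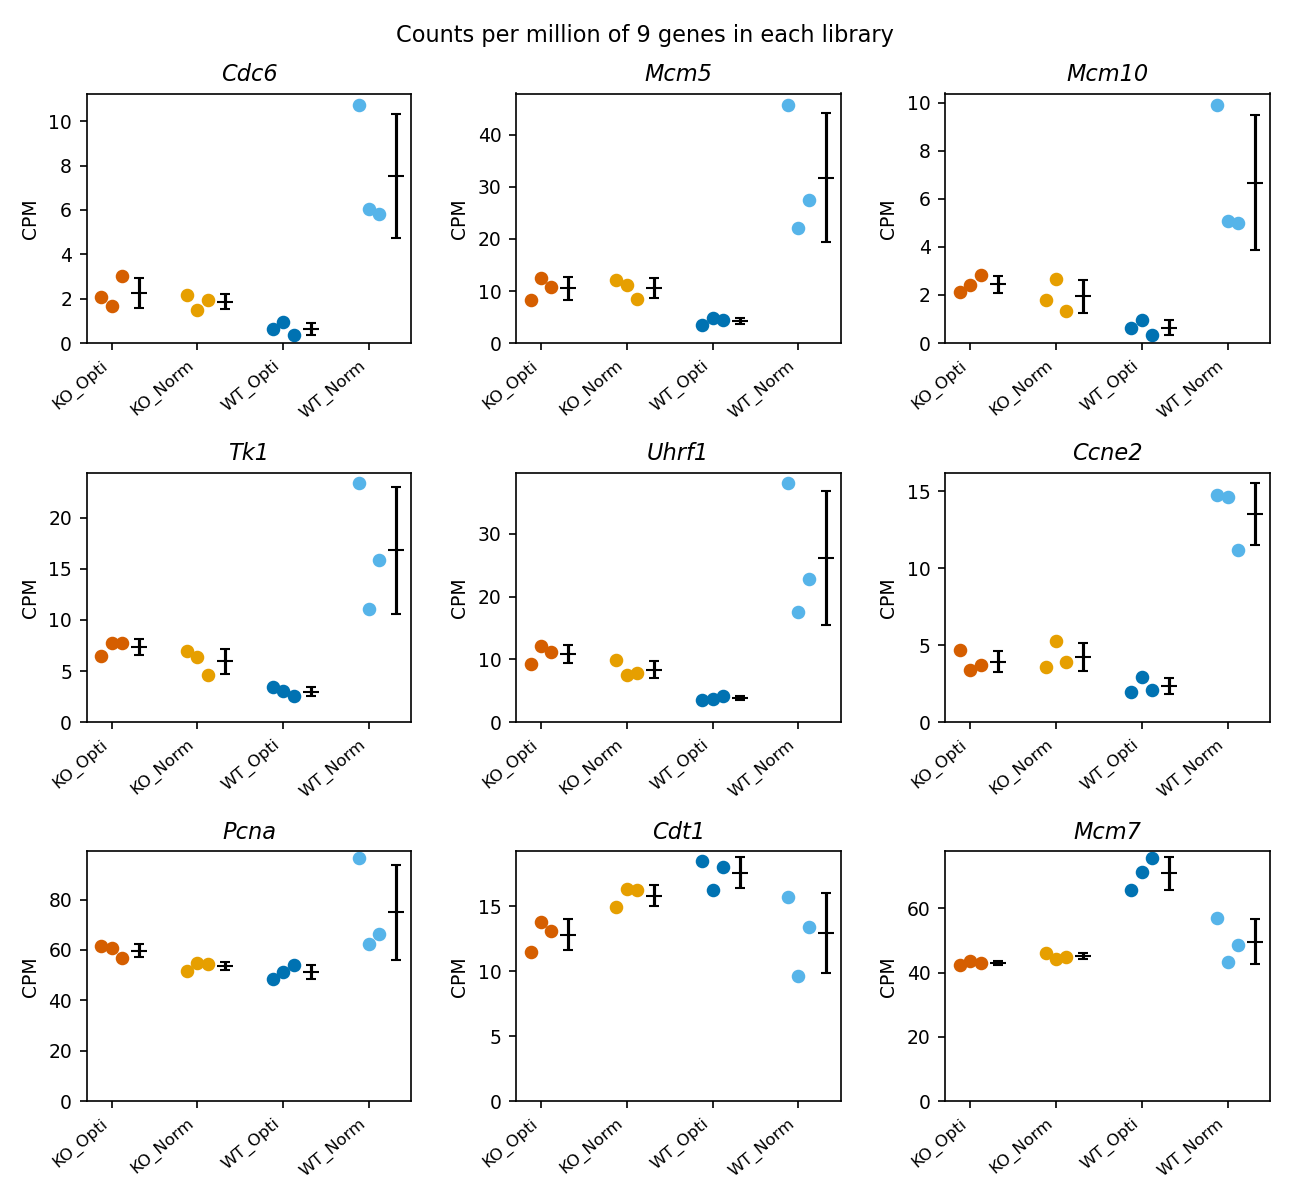
CPM of 9 genes in each of the 12 libraries (points), with the mean and SD of each group of 3 beside them (black). In the plots of Cdc6, Mcm5, Mcm10, Tk1, Uhrf1 and Ccne2 the 6 knockout libraries lie between the WT_Opti and WT_Norm libraries; Mcm7 is highest in WT_Opti.

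Cyclin E genes and E2F genes stand at the entry to S phase. Ccne2 (chr4:11191351-11204779) had 4.68, 3.39 and 3.71 CPM in the KO_Opti libraries and 3.54, 5.24 and 3.87 CPM in the KO_Norm libraries, and 1.98, 2.95 and 2.11 CPM in the WT_Opti libraries and 14.7, 14.6 and 11.2 CPM in the WT_Norm libraries. All knockout libraries of Ccne2 lay between the wild type groups. Ccne2 gave -2.53 ± 0.22 (adjusted p = 2.2e-06) for WT_Opti against WT_Norm, -1.68 ± 0.22 (adjusted p = 7.45e-05) for KO_Norm against WT_Norm and 0.74 ± 0.22 (adjusted p = 0.0217) for KO_Opti against WT_Opti, the last lost without KO_Opti replicate 1 or WT_Opti replicate 1 or 3 (adjusted p = 0.0777 to 0.0882). Ccne1 (chr7:38097984-38107534) had 6.44, 7.72 and 7.47 CPM in the KO_Opti libraries and 13.8, 17.9 and 18.3 CPM in the KO_Norm libraries, and 8.42, 9.45 and 11.8 CPM in the WT_Opti libraries and 39.7, 38.4 and 35.0 CPM in the WT_Norm libraries. Here KO_Opti was the lowest group and KO_Norm lay above WT_Opti, which sets Ccne1 apart from Ccne2. Ccne1 gave -1.93 ± 0.15 (adjusted p = 7.13e-07), -1.18 ± 0.15 (adjusted p = 5.65e-05) and -0.45 ± 0.15 (adjusted p = 0.0362) in the same order, the last lost without KO_Opti replicate 1 or 3, WT_Opti replicate 2 or 3 or WT_Norm replicate 1 (adjusted p = 0.0636 to 0.174). E2f1 had 16.1, 22.5 and 21 CPM in the KO_Opti libraries and 25.0, 21.7 and 21.5 CPM in the KO_Norm libraries, and 30.2, 26.5 and 28.9 CPM in the WT_Opti libraries and 33.3, 28.5 and 34.2 CPM in the WT_Norm libraries. The E2f1 libraries of knockout cells all lay below those of wild type cells, whereas the wild type media overlapped. E2f1 gave -0.16 ± 0.13 (adjusted p = 0.348) for WT_Opti against WT_Norm, -0.49 ± 0.13 (adjusted p = 0.0105) for KO_Norm against WT_Norm and -0.52 ± 0.13 (adjusted p = 0.00914) for KO_Opti against WT_Opti. E2f2 was the least abundant member per transcript length, at 0.267 FPKM on average in WT_Norm in the authors' values, and was lower in WT_Opti than in WT_Norm at -1.77 ± 0.39 (adjusted p = 0.0029).

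Between KO_Opti and KO_Norm, 5 of the 39 genes were lower (12.8%) and 1 was higher, against 11% and 8.39% of all tested genes, so the share of lower genes was near the background. The other 33 did not pass the threshold (median log2 fold change -0.02). Ccne1 was lower at -1.21 ± 0.15 (adjusted p = 0.000265), Rrm2 at -0.63 ± 0.19 (adjusted p = 0.0365), Mcm2 at -0.53 ± 0.15 (adjusted p = 0.0256), Rrm1 at -0.50 ± 0.15 (adjusted p = 0.0317) and Chaf1b at -0.44 ± 0.14 (adjusted p = 0.039). The Mcm2 libraries had 25.3, 36.7 and 31.6 CPM in the KO_Opti libraries and 48.9, 39.7 and 46.7 CPM in the KO_Norm libraries, without overlap. Prim1, the primase subunit that starts each fragment, was higher, at 0.80 ± 0.25 (adjusted p = 0.0399), with 9.15, 7.99 and 7.74 CPM in the KO_Opti libraries and 5.46, 5.53 and 3.28 CPM in the KO_Norm libraries. Under the treatment entry of the labels these 2 groups change places and every sign turns, with 5 genes higher and 1 lower. The count of lower genes became 1 to 2 under 5 single-library omissions: without KO_Opti replicate 1 or 3, or KO_Norm replicate 1 or 3, it was 1, and without KO_Norm replicate 2 it was 2. The call of Prim1 was lost without KO_Opti replicate 1, 2 or 3 or KO_Norm replicate 2 or 3 (adjusted p = 0.0568 to 0.146), that of Rrm2 without KO_Opti replicate 1 or 3 or KO_Norm replicate 1, 2 or 3 (adjusted p = 0.0512 to 0.139) and that of Mcm2 without KO_Opti replicate 1 or 3 or KO_Norm replicate 1 or 3 (adjusted p = 0.0669 to 0.104). Log2 fold changes not past the threshold were 0.15 ± 0.14 for Pcna, -0.01 ± 0.25 for Mcm5, 0.34 ± 0.38 for Mcm10, 0.27 ± 0.35 for Cdc6, 0.02 ± 0.15 for Cdc45 and -0.30 ± 0.16 for Cdt1. For Gins2 the value was -0.02 ± 0.22, for Pola1 0.11 ± 0.24, for Tk1 0.30 ± 0.24, for Tyms 0.10 ± 0.17, for Uhrf1 0.38 ± 0.24, for E2f1 -0.19 ± 0.13, for Ccne2 -0.10 ± 0.21 and for Orc1 -0.02 ± 0.29.

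The interaction term tests whether the medium difference of knockout cells differed from that of wild type cells. It was past the threshold for 28 of the 39 genes, of which 26 were higher, meaning a higher Opti minus Norm difference in knockout than in wild type cells, and 2 were lower, against 14.4% and 17% of all tested genes. The median was 1.12 for the 39 genes and 0.05 for all tested genes. The largest terms belonged to Cdc6, at 3.81 ± 0.51 (adjusted p = 0.000119), Mcm10, at 3.71 ± 0.56 (adjusted p = 0.000323), and Uhrf1, at 3.16 ± 0.34 (adjusted p = 2.41e-05). Mcm5 gave 2.90 ± 0.36 (adjusted p = 7.54e-05), Tk1 2.79 ± 0.35 (adjusted p = 7.72e-05), Ccne2 2.42 ± 0.31 (adjusted p = 7.96e-05), Cdc45 1.99 ± 0.22 (adjusted p = 2.78e-05) and Orc1 1.81 ± 0.42 (adjusted p = 0.00602). Smaller terms were those of Rrm2, 1.30 ± 0.27 (adjusted p = 0.00296), Gins2, 1.15 ± 0.31 (adjusted p = 0.0149), Pola1, 1.0 ± 0.34 (adjusted p = 0.0377), Tyms, 0.84 ± 0.24 (adjusted p = 0.0172), Ccne1, 0.72 ± 0.21 (adjusted p = 0.0186), and Pcna, 0.71 ± 0.19 (adjusted p = 0.0146). Cdt1, at -0.75 ± 0.22 (adjusted p = 0.0218), and Mcm7, at -0.59 ± 0.14 (adjusted p = 0.0075), were the lower ones, and E2f1 gave -0.03 ± 0.18 (adjusted p = 0.922). The Pola1 term was lost without KO_Opti replicate 2 or 3, KO_Norm replicate 2 or 3, WT_Opti replicate 1, 2 or 3 or WT_Norm replicate 1 (adjusted p = 0.0573 to 0.0902) and the Cdt1 term without KO_Opti replicate 1 (adjusted p = 0.0506). With the Y-linked covariate 15 genes were higher. These terms depend on which label of the knockout medium is right. By the treatment entry 24 genes were higher and 1 lower, against 3293 and 3342 of the 19118 tested genes. The term was then 3.14 (adjusted p = 4.32e-07) for Ccne1, 2.56 (adjusted p = 1.67e-05) for Rrm2 and 2.40 (adjusted p = 0.000154) for Uhrf1. The calls of Pola1, at 0.78 (adjusted p = 0.0922), Tyms, at 0.64 (adjusted p = 0.0539), Pcna, at 0.40 (adjusted p = 0.13), and Cdt1, at -0.14 (adjusted p = 0.666), were lost, and Mcm7, at -0.45 (adjusted p = 0.0271), was the lower gene. Cdc6, Mcm10, Mcm5, Tk1, Ccne2, Cdc45, Orc1 and Gins2 stayed higher, with terms between 1.19 and 3.27.

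The average over both media compares all 6 knockout with all 6 wild type libraries, so that the disputed medium label does not enter it. It gave 11 lower genes and none higher, against 16% and 18% of all tested genes, with a median of -0.19. The count of 0 higher genes was also 0 at an unadjusted p below 0.05, with DESeq2 and with limma on FPKM values. The largest decreases were those of Ccne1, -0.81 ± 0.10 (adjusted p = 6.77e-05), Rrm2, -0.68 ± 0.14 (adjusted p = 0.00187), and E2f1, -0.51 ± 0.09 (adjusted p = 0.000959), and Cdc45 gave -0.38 ± 0.11 (adjusted p = 0.0185) and Ccne2 -0.47 ± 0.15 (adjusted p = 0.0302). The call of Cdc45 was lost without KO_Opti replicate 3 or WT_Norm replicate 1 (adjusted p = 0.0504 to 0.059) and that of Ccne2 without KO_Opti replicate 2 or 3, KO_Norm replicate 1 or 3, WT_Opti replicate 2 or WT_Norm replicate 1 or 2 (adjusted p = 0.0543 to 0.0856). Without WT_Norm replicate 1 the count was 6, and with the Y-linked covariate it was 0. Mcm5 (-0.14 ± 0.18), Mcm10 (0.07 ± 0.27), Cdc6 (-0.10 ± 0.25), Tk1 (-0.10 ± 0.17), Uhrf1 (-0.06 ± 0.17) and Orc1 (0.08 ± 0.21) lay near 0 in this average, with opposite signs of the 2 genotype comparisons behind it. The values of Pcna (-0.13 ± 0.10), Cdt1 (-0.08 ± 0.11), Gins2 (-0.20 ± 0.16), Pola1 (-0.33 ± 0.17) and Tyms (-0.26 ± 0.12) did not pass the threshold either.

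If the treatment entry of the labels were the right one, the genotype comparisons would be KO_Opti against WT_Norm in serum and KO_Norm against WT_Opti without serum. KO_Opti against WT_Norm gave 28 lower and 0 higher genes (median -0.72), against 20.3% and 21.3% of all tested genes. No gene was higher at an unadjusted p below 0.05, with DESeq2 or with limma on FPKM values. KO_Norm against WT_Opti gave 15 higher genes and 1 lower gene, Mcm7 (median 0.40), against 12.6% and 11% of all tested genes. These comparisons share their libraries with the ones above.

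Of 62 further replication genes, chosen by function and all tested, 33 were lower and 9 higher in WT_Opti than in WT_Norm (median -0.47), against 19.6% and 20.3% of all tested genes, so that the share of higher genes was below the background. The smallest adjusted p-values were those of Nme1, a nucleoside diphosphate kinase, at -1.40 ± 0.11 (adjusted p = 6.75e-07), Top2a, a topoisomerase, at -2.97 ± 0.25 (adjusted p = 1.59e-06), and Dtl, which targets Cdt1 for degradation, at -2.26 ± 0.22 (adjusted p = 3.88e-06). The 9 higher genes were Orc2 (0.53), Orc3 (0.38), Orc4 (0.95), Orc5 (1.04), Pold3 (0.36), Supt16 (0.36), Rrm2b (0.80), Asf1a (1.20) and Rbbp4 (0.38). Orc2 to Orc5 were thus among the genes that were higher, while Orc1 and Orc6 were lower. With a higher share below the background, this does not set origin recognition genes apart. The higher calls of Orc3, Pold3 and Supt16 were each lost under 5 of 12 single-library omissions. In KO_Norm against WT_Norm 26 of the 62 were lower and 11 higher, against 17.2% and 18.9% of all tested genes, the higher share being near the background, and the smallest adjusted p-values were those of Orc4 (0.97 ± 0.13, adjusted p = 8.75e-05), Rpa2, a subunit of the single-strand binding protein (-1.10 ± 0.15, adjusted p = 0.000111), and Rnaseh2c (-1.27 ± 0.18, adjusted p = 0.00013). The other higher ones were Asf1a (0.96), Recql4 (0.77), Dut (0.67), Rrm2b (0.55), Orc2 (0.53), Rbbp4 (0.44), Supt16 (0.43), Dbf4 (0.42), Orc5 (0.37) and Ssrp1 (0.30). In KO_Opti against WT_Opti 17 were higher and 4 lower, against 13.3% and 14.9% of all tested genes. Samhd1, which breaks down deoxynucleotides, was higher by 1.03 ± 0.09 (adjusted p = 6.04e-06) and Nme1 by 0.75 ± 0.11 (adjusted p = 0.000227), and the 4 lower genes were Orc5 (-0.92), Mcm8 (-0.75), Chtf8 (-0.30) and Rrm2b (-0.73). Between KO_Opti and KO_Norm 6 were higher, led by Top3a (0.75 ± 0.14, adjusted p = 0.00272), and 3 lower, Dbf4 (-0.46), Chtf8 (-0.44) and Nme1 (-0.46), against 8.39% and 11% of all tested genes, and these shares are near or below the background. In the average over both media 7 genes were higher and 6 lower, against 18% and 16% of all tested genes, both shares below the background. Among the higher were Samhd1 (0.46 ± 0.07, adjusted p = 0.000165) and Dut (0.76 ± 0.14, adjusted p = 0.00136), and among the lower Rpa2 (-0.67), Rnaseh2c (-0.52), Mcm8 (-0.52), Dck (-0.39) and Orc5 (-0.27). The interaction was higher for 28 and lower for 7, against 14.4% and 17% of all tested genes. The higher ones included Samhd1 at 1.15 ± 0.13 (adjusted p = 3.73e-05), Top2a at 2.85 ± 0.34 (adjusted p = 5.11e-05) and Dtl at 2.43 ± 0.30 (adjusted p = 5.76e-05), and the lower ones were Asf1a (-1.44), Orc5 (-1.29), Rrm2b (-1.28), Orc4 (-1.13), Orc2 (-0.80), Chtf8 (-0.53) and Rbbp4 (-0.42). By the treatment entry the interaction calls numbered 36, against 6635 of the 19118 tested genes. Chtf8 then gave 0.35 (adjusted p = 0.0606), and the calls of Orc2, Rrm2b and Rbbp4 were lost (-0.26, -0.32 and -0.35). Of the 53 calls of these genes that met the rule for naming, 16 were lost without at least 1 single library. In KO_Norm against WT_Norm this held for 7 of 13 such calls. Among them Dbf4 was lost under 10 of 12 omissions and Recql4 under 6.

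Of 37 regulators of S phase entry, 20 were lower and 8 higher in WT_Opti than in WT_Norm (median -0.42), against 19.6% and 20.3% of all tested genes, so that the share of higher genes was near the background. Ccnd1, cyclin D1, was lower at -1.56 ± 0.09 (adjusted p = 6.04e-08), Myc at -1.05 ± 0.08 (adjusted p = 4.47e-07) and Ccna2, cyclin A2, at -3.0 ± 0.23 (adjusted p = 6.47e-07). The 8 higher genes were the CDK inhibitor genes Cdkn1b (1.08), Cdkn1c (1.44) and Cdkn2a (0.65), the pocket protein gene Rbl2 (0.73), the genes Lin37 (0.63), Lin52 (1.11) and Lin54 (0.44) of the MuvB core, and Cdk4 (0.36), while the CDK inhibitor gene Cdkn2d was lower, at -0.70 ± 0.14 (adjusted p = 0.00169). In KO_Norm against WT_Norm 14 were lower and 7 higher, against 17.2% and 18.9% of all tested genes, the higher share being near the background. Among the lower were Ccnd1 at -1.06 ± 0.09 (adjusted p = 1.94e-06), Ccnd2 at -0.93 ± 0.10 (adjusted p = 2.19e-05) and Skp2 at -1.08 ± 0.16 (adjusted p = 0.000168), with the CDK inhibitor genes Cdkn1c at -0.73 and Cdkn2d at -0.81. The higher ones were Cdkn1b (0.86), E2f6 (0.57), Lin52 (0.55), Cdk4 (0.54), Lin37 (0.46), E2f4 (0.34) and Cdkn2b (0.23). In KO_Opti against WT_Opti 16 were higher and 7 lower, against 13.3% and 14.9% of all tested genes. The lower ones included 4 CDK inhibitor genes, Cdkn2a (-1.58 ± 0.11, adjusted p = 9.33e-07), Cdkn1a (-1.26 ± 0.12, adjusted p = 1.05e-05), Cdkn1c (-1.93 ± 0.21, adjusted p = 2.27e-05) and Cdkn2d (-0.44 ± 0.14, adjusted p = 0.0353). Among the other CDK inhibitor genes of the list Cdkn2b was higher, at 0.29 ± 0.08 (adjusted p = 0.0141), and Cdkn1b, at 0.16 ± 0.12 (adjusted p = 0.389), and Cdkn2c, at 0.03 ± 0.14 (adjusted p = 0.921), did not pass the threshold. The other 3 lower genes were Rb1 (-0.74), Rbl2 (-0.55) and Cdk6 (-0.99), and Myc was higher by 0.76 ± 0.08 (adjusted p = 1.39e-05). Between KO_Opti and KO_Norm 5 were lower and 0 higher, against 11% and 8.39% of all tested genes, the lower share being near the background. The lower ones were led by Cdkn2a (-1.06 ± 0.11, adjusted p = 9.23e-05), Cdk6 (-0.96 ± 0.14, adjusted p = 0.00063) and Cdkn1a (-0.85 ± 0.12, adjusted p = 0.000641), and 2 genes were higher at an unadjusted p below 0.05, 1 with DESeq2 and 0 with limma on FPKM values. The average over both media gave 11 higher and 11 lower genes, against 18% and 16% of all tested genes. The higher ones were Cdkn1b (0.51), Foxm1 (0.50), Ccna2 (0.44), E2f6 (0.43), Myc (0.34), E2f4 (0.30), Cdk2 (0.29), Cdkn2b (0.26), Fbxw7 (0.26), Cdc25a (0.23) and Tfdp1 (0.22), and the lower ones Cdkn1c (-1.33), Cdkn1a (-0.78), Cdkn2a (-0.72), Cdk6 (-0.67), Cdkn2d (-0.63), Ccnd3 (-0.52), Ccnd2 (-0.50), Rb1 (-0.43), Skp2 (-0.31), Ccnd1 (-0.30) and Rbl2 (-0.28). The interaction was higher for 17 and lower for 10, against 14.4% and 17% of all tested genes. The higher ones included Ccnd1 at 1.51 ± 0.12 (adjusted p = 2.56e-06) and Ccna2 at 2.91 ± 0.31 (adjusted p = 1.97e-05), and the lower ones were Cdkn2a (-1.71), Cdkn1c (-1.19), Cdkn1a (-0.97), Lin52 (-0.87), Lin37 (-0.81), Cdkn1b (-0.71), Cdk4 (-0.65), Cdk6 (-0.64), Rb1 (-0.62) and Rbl2 (-0.54). By the treatment entry the interaction calls numbered 24, against 6635 of the 19118 tested genes. Cdk6, at 1.28 (adjusted p = 0.000241), and Cdkn1a, at 0.73 (adjusted p = 0.00513), were then higher, and Cdkn2a (0.42), Rb1 (0.40), Lin37 (-0.44) and Cdk4 (-0.08) did not pass the threshold. Of the 55 calls of regulators that met the rule for naming, 11 were lost without at least 1 single library. Among them the interaction of Rb1 was lost under 10 of 12 omissions. The averages of Skp2 and Rbl2 were lost under 9 and 8.

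Markers of cells in division moved with most called members of the 39 genes between wild type media and in both genotype comparisons. They did not do so in the average over both media. The sum of Mki67, Top2a, Ccnb1, Cdk1 and Bub1 was 49.6 to 64.4 CPM in KO_Opti, 67.0 to 86.1 CPM in KO_Norm, 19.8 to 26.5 CPM in WT_Opti and 123 to 207 CPM in WT_Norm libraries, and no 2 groups overlapped. Mki67 was lower in WT_Opti than in WT_Norm at -3.28 ± 0.23 (adjusted p = 2.85e-07) and in KO_Norm than in WT_Norm at -1.11 ± 0.21 (adjusted p = 0.00118), and higher in KO_Opti than in WT_Opti, at 1.54 ± 0.21 (adjusted p = 0.000187). It was lower in KO_Opti than in KO_Norm, at -0.63 ± 0.21 (adjusted p = 0.048), where Top2a, Ccnb1, Cdk1 and Bub1 did not pass the threshold. In the average over both media Ccnb1 was higher, at 0.68 ± 0.17 (adjusted p = 0.00689). There Mki67, Top2a, Cdk1 and Bub1 did not pass the threshold. The part of the number of dividing cells in the levels of the 39 genes was not tested.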

How the data were processed

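Poly(A) RNA of 12 libraries was sequenced as stranded read pairs. According to the submitters' processing notes and the methods, the authors used FastQC, HISAT2, StringTie and edgeR. The build used and the tool versions were not given in the sources used here. The deposited table holds raw counts per gene and library, and FPKM values that the authors computed from StringTie. The counts were used for tests and FPKM for an alternative. Positions matched GENCODE M21 (GRCm38), where 99.7% of genes had an identifier.

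Counts were analyzed with edgeR 4.0.16 in R 4.3.3. After filterByExpr and TMM scaling, the quasi-likelihood model with a mean for each of the 4 groups was fitted to the 12 libraries at once (common dispersion 0.0646). Two-sided p-values of the 19118 remaining genes received the Benjamini-Hochberg adjustment, and the threshold was 0.05. CPM are counts scaled by TMM library sizes, ± after a log2 fold change is its standard error, and an interaction is the Opti minus Norm difference of knockout cells minus that of wild type cells. Alternatives were limma 3.58.1 on log2(FPKM + 0.1), DESeq2 1.42.0, its size factors, no filter, a replicate block, a Y-linked covariate, the compared groups alone, the treatment entry, and leaving out each library. The procedure was run on counts simulated with a common dispersion and with changes set only between WT_Opti and WT_Norm. That run does not cover the genotype comparisons or the interaction. Libraries of 1 group were distinct (chi-square per degree of freedom at least 23). Precision is limited by 3 libraries per group, and counting error is small at this depth except for genes such as Mcm10.

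The members and lists were chosen with earlier results of these data known. Named in the text are 16 genes set by function, in each comparison the 3 called members with the largest change in each direction and those against the majority, and from the other lists the 3 smallest adjusted p-values and those against the majority, of which 1 gene is not reported here.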

Additional observations from a re-analysis of the deposited data

Results flagged for a closer look

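The medium difference was not the same in knockout as in wild type cells for 28 of the 39 genes by the interaction term (edgeR's quasi-likelihood test, Benjamini-Hochberg adjusted p below 0.05), with 26 genes higher and 2 lower. Over all tested genes 14.4% were higher and 17% were lower in this term. Terms, in log2 units, were 3.81 for Cdc6, 3.71 for Mcm10, 3.16 for Uhrf1, 2.90 for Mcm5, 2.79 for Tk1 and 2.42 for Ccne2. They were 1.99 for Cdc45, 1.81 for Orc1, 1.30 for Rrm2, 1.15 for Gins2, 1.0 for Pola1, 0.84 for Tyms, 0.72 for Ccne1 and 0.71 for Pcna. The 2 lower genes were Cdt1, at -0.75, and Mcm7, at -0.59. With the knockout medium taken from the treatment entry, the terms were 3.14 for Ccne1, 2.56 for Rrm2 and 2.40 for Uhrf1, those of Pola1 (0.78), Tyms (0.64), Pcna (0.40) and Cdt1 (-0.14) did not pass the threshold, and of the 2 lower genes Mcm7 (-0.45) was left. Y-linked expression was 73.5 to 82.1 CPM in KO_Opti, 113 to 129 CPM in KO_Norm and 37.5 to 66.1 CPM in wild type libraries. Its part in these differences cannot be told apart from genotype or from the medium of the knockout cells.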

How the results depend on the processing

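Of 3955 values of named genes under alternatives, 3445 kept their direction and side of the threshold, 423 lost and 3 gained a call, and 84 changed sign, 74 of them with neither value past the threshold; causes were not tested. The lower counts of 29 for WT_Opti against WT_Norm stayed within 1.5 times under every alternative run, at 27 to 30 when single libraries were left out.

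With the Y-linked covariate the lower genes were 0 (main value 11) for the average of genotypes, 1 (29) for KO_Norm against WT_Norm, 1 (5) for KO_Opti against WT_Opti and 1 (5) for KO_Opti against KO_Norm. Higher genes were 6 (13) for KO_Opti against WT_Opti, 0 (1) for KO_Opti against KO_Norm and 15 (26) for the interaction. Over all tested genes this covariate left 695 calls (6491), 766 (6896), 3391 (5395), 1926 (3709) and 3398 (6007) in the average, KO_Norm against WT_Norm, KO_Opti against WT_Opti, KO_Opti against KO_Norm and interaction, and 38.0% (53.0%) of the calls of the average were higher. With limma on FPKM values lower genes were 5 for the average, 18 for KO_Norm against WT_Norm, 2 for KO_Opti against WT_Opti and 1 for KO_Opti against KO_Norm, and 2 were higher in KO_Norm against WT_Norm. That scaling moved the median of all genes by 0.19 (WT_Opti against WT_Norm), 0.11 (average), 0.15 (KO_Norm against WT_Norm) and 0.11 (KO_Opti against KO_Norm), and the higher share of all calls was 69.7% (50.9%), 68.4% (53.0%), 68.6% (52.4%) and 69.8% (43.2%) in these, and 57.2% (47.1%) in KO_Opti against WT_Opti. Without a filter the median of all genes moved by 0.19 in the interaction. Higher genes in WT_Opti against WT_Norm were 1 with DESeq2 size factors, no filter, the replicate block and the compared groups alone. Lower genes in KO_Opti against WT_Opti were 2 without a filter and 1 by the treatment entry. For KO_Opti against KO_Norm higher genes were 0 without a filter, 2 with DESeq2 and 5 by the treatment entry, and lower genes 2 without a filter and 1 by the treatment entry, where 56.8% (43.2%) of all calls were higher. By that entry 1 gene was lower in the interaction.

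Same-numbered libraries of different groups had r of -0.20 to 0.15, and differently numbered ones -0.17 to 0.18. With 3 libraries per group this cannot show whether the numbers pair samples, and the main fit used no pairing. With the replicate block 3 genes were lower in KO_Opti against WT_Opti and 2 in KO_Opti against KO_Norm, and the block gave 0.0072 for Mcm5, 0.0158 for Gins2 and 0.016 for Orc1 there.

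Settings added after seeing the data covered the crossed comparisons, the other lists and their named genes, and the interaction terms of named genes by the treatment entry. By that entry the sign of the interaction changed for E2f1 (0.35), Chtf8 (0.35), Cdkn2a (0.42), Rb1 (0.40), Cdk6 (1.28) and Cdkn1a (0.73). With the Y-linked covariate the average of Rnaseh2c was 0.28, and KO_Norm against WT_Norm gave -0.23 for Orc2, -0.0176 for Dbf4, -0.15 for Supt16 and -0.45 for Rrm2b. With the Y-linked covariate calls were 10 (28) for KO_Opti against WT_Norm and 0 (16) for KO_Norm against WT_Opti, and with limma on FPKM values 16 and 10. The covariate left 0 (13), 1 (37), 10 (21), 4 (9) and 19 (35) of the 62 replication genes in the average, KO_Norm against WT_Norm, KO_Opti against WT_Opti, KO_Opti against KO_Norm and interaction, and 1 (22), 2 (21), 15 (23) and 16 (27) of the 37 regulators in the same comparisons without KO_Opti against KO_Norm. There 3 (5) regulators were called without a filter and 3 with limma on FPKM values.

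Leaving out single libraries gave 1 to 2 higher genes in WT_Opti against WT_Norm, 6 to 11 lower in the average, 0 to 2 higher in KO_Norm against WT_Norm, 2 to 5 lower in KO_Opti against WT_Opti, 0 to 2 higher and 1 to 6 lower in KO_Opti against KO_Norm, and 1 to 3 lower in the interaction. Other replication genes called were 12 to 24 in KO_Opti against WT_Opti and 4 to 11 in KO_Opti against KO_Norm, where regulators were 3 to 6. Calls over all genes there fell to 2162, 2337, 2327 and 2211 without KO_Opti replicate 1 or 3 or KO_Norm replicate 2 or 3.

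Values whose sign changed, as log2 fold changes, were as follows. With the Y-linked covariate the average gave 0.0683 for Mcm5, -0.44 for Mcm10, 0.53 for Cdt1, 0.20 for Gins2, 0.18 for Tk1, 0.23 for Uhrf1 and -0.57 for Orc1, KO_Opti against WT_Opti -0.13 for Pola1 and 0.31 for Rrm2, and KO_Opti against KO_Norm -0.14 for Cdc45, 0.28 for Ccne2 and 0.44 for Orc1. With limma on FPKM values WT_Opti against WT_Norm gave 0.056 for E2f1, the average 0.0111 for Pcna, -0.0114 for Mcm10, 0.0535 for Cdt1, 0.0201 for Tk1 and 0.0647 for Uhrf1, KO_Opti against WT_Opti 0.0594 for Rrm2, and KO_Opti against KO_Norm 0.11 for Mcm5, 0.15 for Gins2, 0.0219 for Ccne2 and 0.13 for Orc1. Mcm5 in KO_Opti against KO_Norm was 0.0004 with DESeq2 size factors, 0.002 without a filter, 0.0003 with DESeq2 and 0.0159 with the compared groups alone, which gave 0.0032 for Gins2 and 0.003 for Orc1. The interaction of E2f1 was 0.0258 with DESeq2 size factors and 0.0257 with DESeq2. Leaving out single libraries gave -0.25 to 0.0556 for Mcm5, -0.0825 to 0.29 for Mcm10, -0.24 to 0.0821 for Cdc6, -0.18 to 0.012 for Cdt1, -0.22 to 0.0715 for Tk1, -0.18 to 0.14 for Uhrf1 and -0.0704 to 0.23 for Orc1 in the average, -0.034 to 0.32 for Pola1 and -0.18 to 0.095 for Rrm2 in KO_Opti against WT_Opti, -0.15 to 0.14 for Mcm5, -0.0195 to 0.11 for Cdc45, -0.24 to 0.24 for Gins2, -0.0885 to 0.32 for Pola1, -0.25 to 0.0827 for Ccne2 and -0.18 to 0.28 for Orc1 in KO_Opti against KO_Norm, and -0.13 to 0.10 for E2f1 in the interaction.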
